A study of Mus musculus with 8 samples.

Results

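The receptors through which blood leukocytes bind the constant (Fc) part of IgG were followed in mouse peripheral blood after acute restraint stress. The genes were Fcgr1, Fcgr2b, Fcgr3 and Fcgr4, which encode the 4 mouse Fc gamma receptors, Fcer1g, which encodes the common gamma chain, and Fcgrt, which encodes the heavy chain of the neonatal Fc receptor (FcRn). They were taken as the rows of the count table whose symbol equals one of these names, and all 6 were found among 21878 symbols. The 4 control and 4 stress libraries came from the blood of female C57BL/6 wild-type (WT) mice, 6-8 weeks old. The stress group was held for 6 h in a ventilated tube, the control group consisted of littermates left in their cage, and both groups went without food and water for that time. The blood was not sorted, and each library gave a read count per gene. Numbered replicates are the labels' own, and the labels do not say whether each library came from a single mouse. The p-values set the difference between the groups against the spread between these samples.

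Fc gamma receptors couple antibody to the cells of innate immunity. Fcgr1, Fcgr3 and Fcgr4 are activating receptors that need the common gamma chain, a small adaptor with an immunoreceptor tyrosine-based activation motif (ITAM), for surface expression and for signalling through the kinase Syk, while Fcgr2b carries its own inhibitory motif and recruits the phosphatase encoded by Inpp5d. In mouse blood, Fcgr3 is found on neutrophils, monocytes and NK cells, Fcgr4 on neutrophils and non-classical monocytes, Fcgr1 mainly on monocytes, and Fcgr2b is the only Fc gamma receptor of B cells and is also present on myeloid cells. FcRn pairs with beta-2 microglobulin (B2m) and returns IgG from endosomes to the plasma instead of letting it be degraded.

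Fcgr2b, Fcgr4, Fcgr3 and Fcer1g lie close together on chromosome 1, and Fcgr1 and Fcgrt lie elsewhere (GRCm38/mm10, GENCODE M21). Fcgr2b spans chr1:170958617-170976547 on the minus strand, Fcgr4 spans chr1:171018920-171029761 on the plus strand, Fcgr3 spans chr1:171051174-171064935 on the minus strand, and Fcer1g spans chr1:171229572-171234365 on the minus strand. Fcgr1 spans chr3:96282909-96293969 and Fcgrt spans chr7:45092990-45103851, both on the minus strand. Fcgr2b and Fcgr3, the inhibitory and an activating receptor, share coding sequence, so short reads from it cannot always be given to one gene. Of all 50-base windows in the annotated transcripts of Fcgr3, 9.58% were identical to a window of Fcgr2b, while Fcgr1, Fcgr4, Fcer1g and Fcgrt shared no such window with any other gene. Fcgr2b, the denominator of 4 of the ratios given later, shared 395 of its 5685 windows (6.95%) with any other gene, 166 of them with Fcgr3 and further ones with genes such as Gm38204, Cplx2 and Gm47409. The longest identical stretch has 129 bases and is shown because it marks where the 2 counts are least certain. It lies in coding exons, within chr1:170966674-170968081 for Fcgr2b and within chr1:171054167-171057792 for Fcgr3, both on the minus strand, with an intron inside each range.
Fcgr2b and Fcgr3: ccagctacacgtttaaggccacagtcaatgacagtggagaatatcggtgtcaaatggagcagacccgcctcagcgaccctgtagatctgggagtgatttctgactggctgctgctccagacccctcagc
The annotation also places 155 exon bases of Fcgr2b opposite the antisense gene Gm38204. Whether the counting used strand is not given in the sources used here.

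The depth differed between the groups. Control libraries held 31471145 to 39014775 counts and stress libraries 25978683 to 29655725, of which haemoglobin genes took 51.9% to 63.8% and 61.2% to 75.5%. Levels are therefore given as CPM, the count scaled to a common library size, with library sizes scaled by TMM, which takes most genes as unchanged. The 11718 tested genes had a median log2 fold change (stress over control) of -0.02 on the TMM scale and of -0.82 on the scale of total counts. Calls needed a log2 fold change beyond 1 in either direction together with an adjusted p under 0.01, from the quasi-likelihood test of edgeR adjusted by Benjamini-Hochberg over all tested genes. By this rule 1.69% of the tested genes were called up and 0.0171% were called down.

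All 6 genes passed the filter on low counts. Fcgr3 alone was called, and its expression was up-regulated in the stress group. Fcer1g passed the adjusted p but not the fold threshold, and 4.60% of all tested genes were higher at an adjusted p below 0.01 whatever the fold. Fcgr1, Fcgr2b, Fcgr4 and Fcgrt did not pass. No member was called down by edgeR, DESeq2 or limma-voom, and 0 of the 6 were lower at an unadjusted p below 0.05. Of all tested genes, 18.2% were higher and 13% (1524 genes) lower at that unadjusted p, which is the share to hold against such counts in the lists that follow. In 2 genes, Fcgr3 and Fcer1g, all 4 stress samples exceeded all 4 control samples, which was so for 11.1% of all tested genes. The median log2 fold change of the 6 genes was 0.76.

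**Figure D1:**
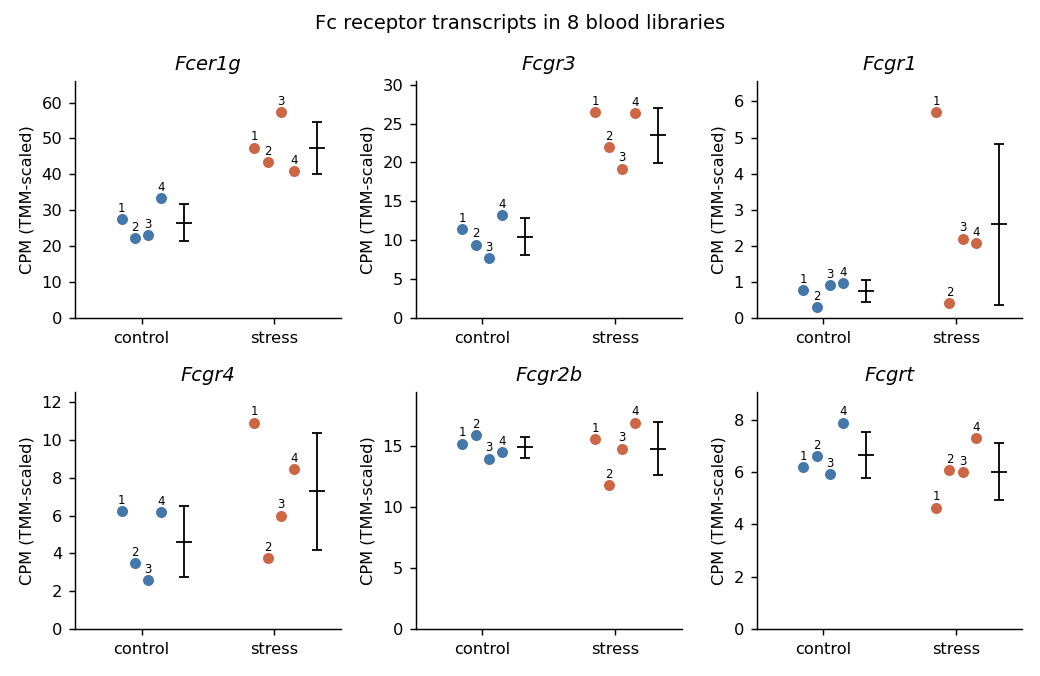
TMM-scaled CPM of the 6 genes in each library, with numbered samples as points and the group mean and SD (n = 4) beside them. The stress samples of Fcgr3 (19.2 to 26.5) and Fcer1g (40.8 to 57.4) lie above all of their control samples, and the groups of the other 4 genes overlap.

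Fcgr3, the low-affinity activating receptor, stood at 11.4, 9.44, 7.74 and 13.3 CPM in control samples 1 to 4 and at 26.5, 22.0, 19.2 and 26.3 CPM in stress samples 1 to 4. The groups did not overlap, and the lowest stress sample was above the highest control sample. The mean rose from 10.5 ± 2.40 to 23.5 ± 3.55 CPM (SD, n = 4), a 2.27-fold difference with a log2 fold change of 1.18 (SE 0.16, edgeR, adjusted p = 0.00107). Behind these values are 421 to 536 reads per control library and 253 to 823 per stress library. On the scale of total counts the log2 fold change was 0.48 (adjusted p = 0.212), and the call was lost. That value is 1.30 above the median of all tested genes on the same scale.

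Fcer1g, the common gamma chain, stood at 27.6, 22.2, 23.1 and 33.3 CPM in the control samples and at 47.5, 43.5, 57.4 and 40.8 CPM in the stress samples. All 4 stress samples were above all 4 control samples. The means were 26.6 ± 5.09 and 47.3 ± 7.25 CPM (SD, n = 4), with a log2 fold change of 0.83 (SE 0.15, edgeR, adjusted p = 0.00298). The adjusted p was 0.0167 without control 2, 0.0126 without control 3 and 0.0107 without stress 1. By total counts the log2 fold change was 0.04.

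The other activating receptors varied more between libraries. Fcgr1, the high-affinity receptor, stood at 0.788, 0.310, 0.925 and 0.977 CPM in the control samples and at 5.71, 0.417, 2.20 and 2.08 CPM in the stress samples. In 3 of 4 stress samples it was above every control sample, and stress 2 lay within the control range. The means were 0.750 ± 0.304 and 2.60 ± 2.23 CPM (SD, n = 4), with a log2 fold change of 1.81 (SE 0.59, edgeR, adjusted p = 0.0617), so the difference did not pass. Its counts were low, from 16 to 64 reads in the control libraries and from 9 to 128 in the stress libraries. Without stress 2 the log2 fold change was 2.19 (adjusted p = 0.0118), and without stress 1 it was 1.08 (adjusted p = 0.209).

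Fcgr4, which binds IgG2a and IgG2b, stood at 6.25, 3.48, 2.60 and 6.18 CPM in the control samples and at 10.9, 3.76, 6.00 and 8.48 CPM in the stress samples. Stress 1 and stress 4 were above all control samples, and stress 2 and stress 3 were within the control range. The means were 4.63 ± 1.87 and 7.29 ± 3.10 CPM (SD, n = 4), with a log2 fold change of 0.69 (SE 0.34, edgeR, adjusted p = 0.188). Stress 1 held the highest Fcgr1 and the highest Fcgr4 of all libraries. It also had the highest summed markers of classical monocytes (1243 CPM) and of non-classical monocytes (185 CPM) within the stress group, and the part of these cells in the values was not tested.

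Fcgr2b, the inhibitory receptor, stood at 15.2, 15.9, 14.0 and 14.5 CPM in the control samples and at 15.6, 11.8, 14.8 and 16.9 CPM in the stress samples. The control range lay wholly inside the stress range. The means were 14.9 ± 0.843 and 14.8 ± 2.16 CPM (SD, n = 4), with a log2 fold change of -0.01 (SE 0.12, edgeR, adjusted p = 0.970) that turned to 0.0019 with DESeq2's size factors in edgeR. Fcgrt, the FcRn heavy chain, stood at 6.19, 6.60, 5.92 and 7.88 CPM in the control samples and at 4.64, 6.07, 6.00 and 7.30 CPM in the stress samples. Its groups overlapped, with means of 6.65 ± 0.867 and 6.00 ± 1.09 CPM (SD, n = 4) and a log2 fold change of -0.14 (SE 0.16, edgeR, adjusted p = 0.594). Scaled by total counts, Fcgr2b and Fcgrt stood at -0.77 and -0.88, against the median of -0.82 for all tested genes.

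**Figure D2:**
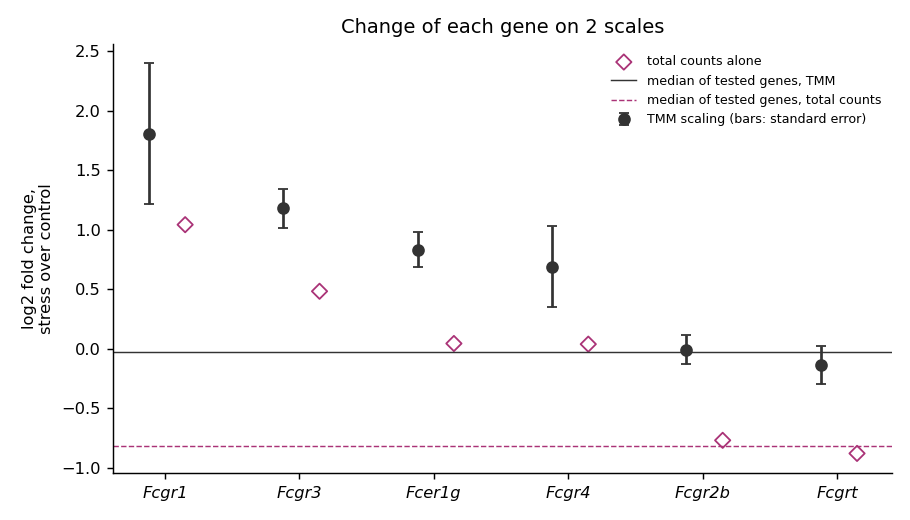
Log2 fold change (stress over control) of each gene by TMM (filled points, with SE bars) and by total counts (open diamonds, no bars), with the median of all tested genes on each scale as a horizontal line. Fcgr3 (1.18 and 0.48) lies above that median on both scales, and Fcgr2b (-0.01 and -0.77) and Fcgrt (-0.14 and -0.88) lie next to it on both.

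Levels can be compared between genes only per length, and CPM per kilobase of annotated exons was used for this. The order in the control group was Fcer1g (30.4), Fcgr3 (6.03), Fcgr4 (3.68), Fcgrt (3.16), Fcgr2b (2.57) and Fcgr1 (0.290). In the stress group the order was the same, with levels of 54.1, 13.5, 5.80, 2.86, 2.55 and 1.00 CPM per kilobase. By this length the common gamma chain had the highest level in both groups, and the gap to Fcgr3 was larger than the spread between samples. Fcgr3 and Fcgr4 overlapped in the control group but not in the stress group, where the lowest Fcgr3 sample had 11.1 and the highest Fcgr4 sample 8.70 CPM per kilobase. Fcgr4 and Fcgrt overlapped in both groups, and so did Fcgrt and Fcgr2b in the stress group. Fcgr1 was the lowest by this length within every control and every stress sample. In stress 1 it nearly met Fcgrt, with 2.205 and 2.206 CPM per kilobase. Between different stress samples, the Fcgr1 range of 0.161 to 2.20 reached into that of Fcgr2b (2.04 to 2.92). The place of Fcgr2b depends on the transcript that is made, since with its longest coding transcript (3544 bases) in place of all exons (5790 bases) its control level was 4.21 CPM per kilobase. Dividing by the shortest coding transcript of each gene would put Fcgrt at 52.4 and Fcer1g at 39.4 CPM per kilobase in the control group, which rests on an annotated Fcgrt transcript of 127 bases. With the longest coding transcripts Fcer1g stood at 38.9 and Fcgrt at 3.76, so Fcer1g was first there too.

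The balance between the activating receptors and the inhibitory receptor was taken within each library as a ratio of read counts, which does not depend on the scaling between libraries. Reads of Fcgr3 per read of Fcgr2b were 0.752, 0.593, 0.554 and 0.915 in the control samples and 1.70, 1.86, 1.30 and 1.56 in the stress samples. In the control samples Fcgr2b had more reads than Fcgr3, and in every stress sample it had fewer. Reads are not divided by gene length, so this order does not show which transcript was more abundant. Per kilobase of annotated exons Fcgr3 was above Fcgr2b in both groups (6.03 and 2.57 in control, 13.5 and 2.55 in stress samples). The mean ratios were 0.703 ± 0.165 and 1.60 ± 0.238 (SD, n = 4), a log2 difference of 1.20 (SE 0.20, two-sided exact permutation test, p = 0.0286). This is the smallest p that 4 samples against 4 allow, and it was 0.1 after Benjamini-Hochberg adjustment over the 7 ratios tested, so the difference did not pass the correction although it was higher in 4 of 4 stress samples. Reads of Fcer1g per read of Fcgr2b were 1.81, 1.39, 1.66 and 2.30 in the control samples and 3.04, 3.68, 3.88 and 2.41 in the stress samples. The groups did not overlap here either, with a log2 difference of 0.86 (SE 0.22, exact permutation test, p = 0.0286, adjusted p = 0.1). Both ratios share the Fcgr2b count, and the Fcgr3 ratio also rests on genes with shared sequence.

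The remaining ratios did not separate the groups. The log2 difference was 1.43 for Fcgr1 to Fcgr2b (exact permutation test, p = 0.143) and 0.67 for Fcgr4 to Fcgr2b (exact permutation test, p = 0.2). Among the activating partners, it was -0.54 for Fcgr4 to Fcgr3 (exact permutation test, p = 0.143) and -0.34 for Fcer1g to Fcgr3 (exact permutation test, p = 0.171), with an adjusted p of 0.2 for all 4. Reads of Fcgrt per read of B2m, its light chain, had group means of 0.00954 ± 0.00155 for control and 0.00585 ± 0.00165 for stress (SD, n = 4), a log2 difference of -0.73 (SE 0.22, exact permutation test, p = 0.0571, adjusted p = 0.133). B2m itself stood at 703 ± 76.6 and 1051 ± 178 CPM, with a log2 fold change of 0.58 (SE 0.20, edgeR, adjusted p = 0.0653). The reads of all 3 activating receptors made up 54.8%, 45.4%, 44.6% and 58.5% of the reads of the 4 Fc gamma receptors in the control samples, and 73.4%, 68.9%, 64.9% and 68.5% in the stress samples. These are shares of reads, not divided by gene length, and not shares of transcripts.

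**Figure D3:**
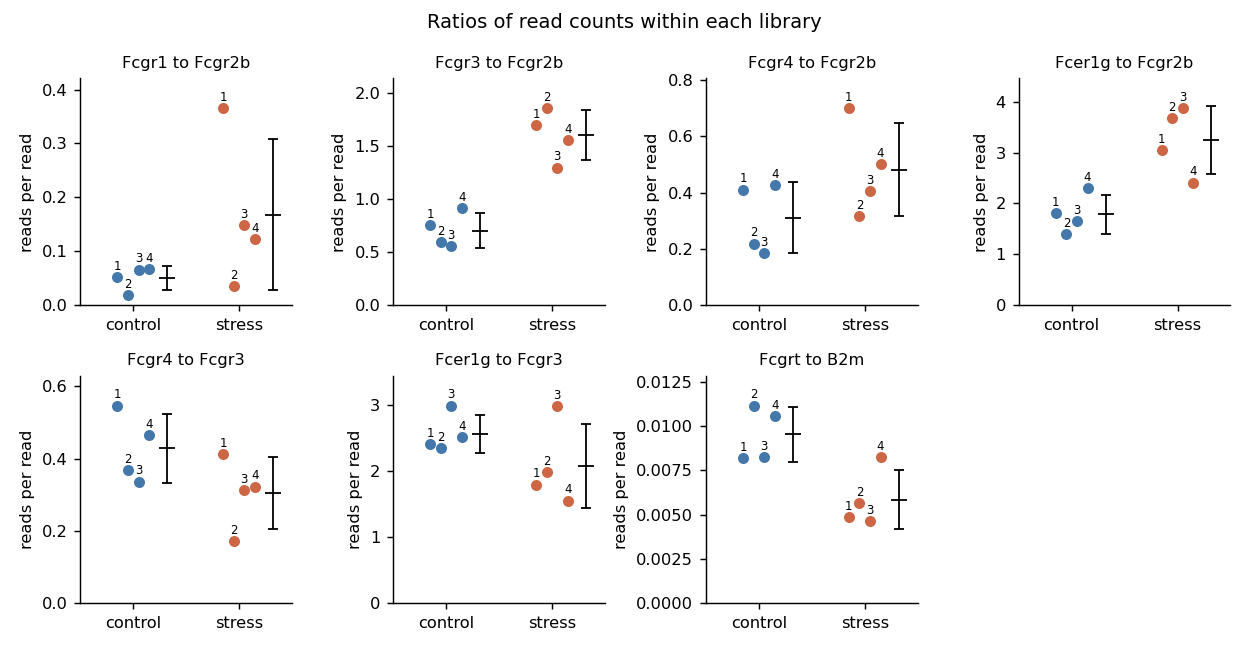
Reads of the first gene per read of the second gene (linear axis from 0) in each library for the 7 gene pairs, with numbered samples as points and the group mean and SD (n = 4) beside them. The Fcgr3 to Fcgr2b ratio (control 0.554 to 0.915, stress 1.30 to 1.86) and the Fcer1g to Fcgr2b ratio (control 1.39 to 2.30, stress 2.41 to 3.88) do not overlap between groups, and the other 5 do.

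In whole blood, more cells of a type and more RNA per cell cannot be told apart. Markers of the cells that carry these receptors moved between the groups. Of 12 neutrophil markers, 11 were tested and 7 were called up (edgeR), and their summed level was 190.2 to 376 CPM in the control samples and 589 to 862 CPM in the stress samples, with Camp at 0 in some library. Of 9 classical monocyte markers 6 were called up, with sums of 353 to 475 and 717 to 1243 CPM. Lyz2, with means of 273 and 679 CPM, was the largest part of that sum, and the cells that its reads came from were not identified. Ly6c2, Csf1r and Ms4a4c were not called, so the sum is not a measure of monocytes alone. Flow cytometry in the study, which counts cells, gave fewer blood monocytes, T, B and NK cells and more neutrophils after stress. Of 10 platelet markers 3 were called up and all 10 were higher at an adjusted p below 0.01, with sums of 1491 to 2177 and 3302 to 3969 CPM. The 8 non-classical monocyte markers had 0 calls (edgeR, 4 lower at an unadjusted p below 0.05), with sums of 180 to 220 and 127 to 185 CPM. Spn, with means of 82.5 and 71.5 CPM, was the largest part of that sum, followed by Pou2f2 (34.2) and Ace (33.9 CPM) in the control group. Treml4 and Adgre4 had control means of 5.80 and 9.13 CPM. The cells that the Spn and Pou2f2 reads came from were not identified. Cx3cr1 was the 1 higher gene of the list (log2 fold change 0.34, SE 0.28, edgeR, adjusted p = 0.435), and 7 were lower. The 8 B cell markers had 0 calls (edgeR, all 8 lower at an unadjusted p below 0.05), with sums of 728 to 889 and 471 to 651 CPM.

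The lists of the remaining blood cells held few calls. None of 10 T cell, 8 NK cell and 7 tested erythroid markers was called by edgeR, with 0, 1 lower and 2 higher at an unadjusted p below 0.05, and 1 gene was called up among 6 tested eosinophil and basophil markers (Gata2) and 1 among 6 dendritic cell markers (Xcr1). Prg2, Epx and Mcpt8, defining markers of eosinophils and basophils, were at 0 in some library. The summed NK cell markers were 67.8 to 114 CPM in the control samples and 59.5 to 134 CPM in the stress samples. The sums did not overlap for the dendritic cell markers (4.87 to 5.96 and 8.07 to 11.6 CPM) and for the eosinophil and basophil markers (15.1 to 17.3 and 19.1 to 24.3 CPM). The latter list was mixed, with 3 tested markers higher and 3 lower. Gata2, with means of 6.31 and 13.1 CPM, was a large part of its sum, while Il5ra had a log2 fold change of -0.80 (SE 0.16, edgeR, adjusted p = 0.00626). The 7 tested erythroid markers all had a positive log2 fold change, with 1.06 as the median.

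Set against the reads of these markers, the values of Fcgr3, Fcer1g, Fcgr4 and Fcgr2b depended on the marker list taken. The neutrophil, classical monocyte and platelet sums were themselves higher in the stress samples and the B cell sum lower. The list used as denominator therefore shapes the direction of each ratio. The mean of Fcgr1 was higher in the stress group against each list used. This measure was chosen after values had been seen, and it is given as a description with no test. The NK cell and T cell lists, among others, were not used in this way, although NK cells carry Fcgr3. Per 100 reads of the neutrophil markers, Fcgr3 had 3.47, 3.33, 4.07 and 3.53 reads in the control samples and 4.33, 3.73, 3.09 and 3.06 in the stress samples. It had 2.47 ± 0.418 and 2.31 ± 0.555 (SD, n = 4) per 100 reads of the classical monocyte markers, and 0.570 and 0.668 per 100 platelet marker reads. The groups overlapped against these 3 lists, whose markers were higher in the stress samples, and did not overlap against the other 2. Per 100 reads of the non-classical monocyte markers Fcgr3 had 4.15 to 6.05 reads in the control samples and 14.3 to 18.2 in the stress samples, and per 100 B cell marker reads it had means of 1.33 and 4.19. Spn was the largest part of the non-classical monocyte sum, so the former is not a value per non-classical monocyte.

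Fcer1g showed the same split. It had 9.31 ± 1.95 and 7.28 ± 1.87 reads per 100 neutrophil marker reads, 6.26 and 4.66 per 100 classical monocyte marker reads, and 1.46 ± 0.121 and 1.32 ± 0.123 per 100 platelet marker reads, with overlap in each. Against the non-classical monocyte markers it had 12.3 to 15.2 reads in the control samples and 25.7 to 45.0 in the stress samples, and against the B cell markers means of 3.37 and 8.61, without overlap. Fcgr4 had 1.53 and 1.09 reads per 100 neutrophil marker reads and 2.33 and 4.78 per 100 reads of the non-classical monocyte markers, with overlap in both. For Fcgr1 the groups overlapped against each list used. Its means were 0.274 and 0.400 per 100 neutrophil marker reads, and 0.379 and 1.64 per 100 reads of the non-classical monocyte markers. Fcgr2b had 1.87 ± 0.201 reads per 100 B cell marker reads in control samples and 2.63 ± 0.173 in stress samples, with no overlap (1.62 to 2.06 and 2.51 to 2.89). It was lower in the stress samples, also with no overlap, per 100 reads of neutrophil (3.85 to 7.35 and 1.96 to 2.55), classical monocyte (3.05 to 4.51 and 1.26 to 1.65) and platelet markers (0.666 to 1.05 and 0.325 to 0.513). Against the non-classical monocyte markers its groups overlapped. The part of each cell type in the receptor levels was not tested.

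**Figure D4:**
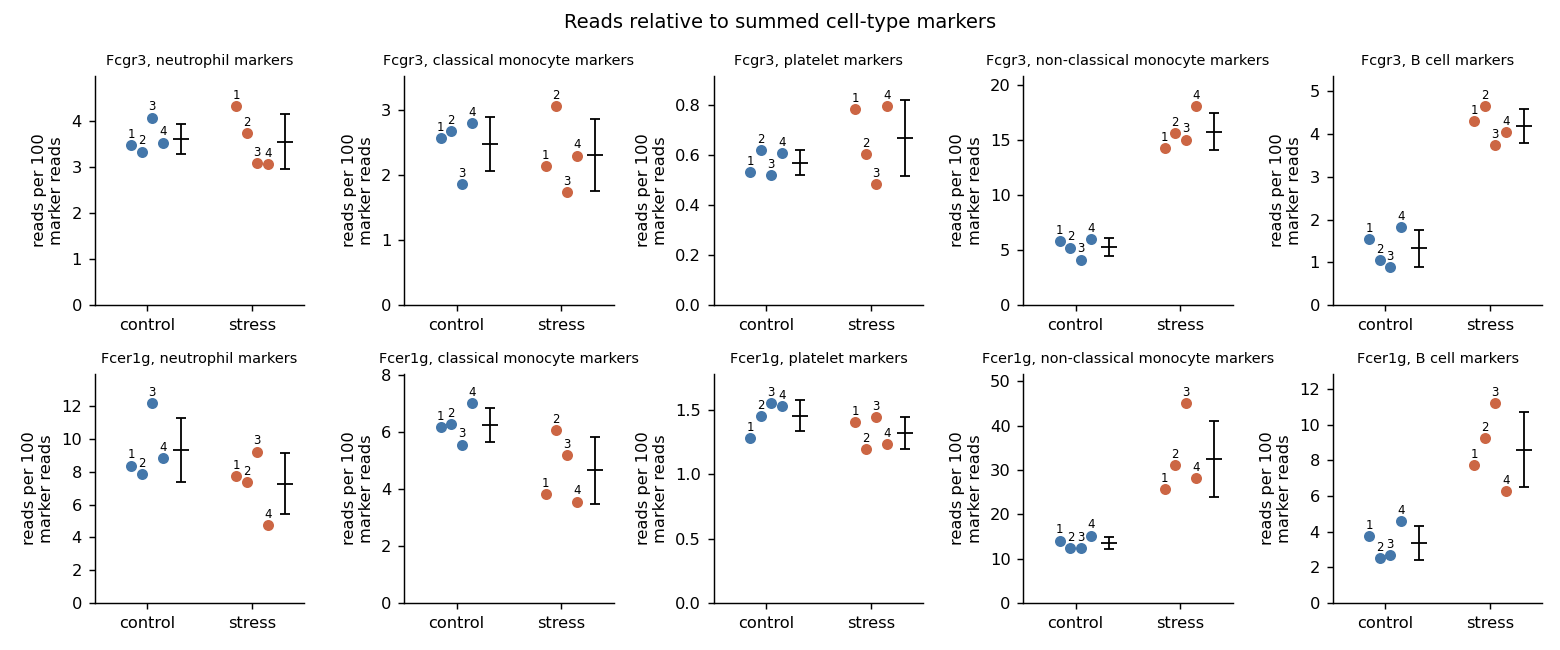
Reads of Fcgr3 (top) and Fcer1g (bottom) per 100 reads of the summed markers of 5 cell types in each library, with numbered samples as points and the group mean and SD (n = 4) beside them. The groups overlap for neutrophil, classical monocyte and platelet markers and do not overlap for non-classical monocyte markers (Fcgr3 4.15 to 6.05 in control and 14.3 to 18.2 in stress samples) and B cell markers.

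Genes around the receptors were counted in lists of their roles. Of 86 listed genes 81 were tested, 4 were called up and 0 were called down by edgeR, with 29 higher and 9 lower at an unadjusted p below 0.05. The 4 make 4.94% of the tested genes of the lists, against 1.69% of all tested genes. The lists were written with earlier results of these data known, so such shares describe the lists and do not test them. DESeq2 and limma-voom each called the same 4 genes up and also called Fcamr, a receptor for IgA and IgM, down, as edgeR did with no count filter, with upper-quartile scaling and without stress 4. At an adjusted p below 0.01 with no fold threshold, 13 were higher and 1 was lower, against 4.60% and 0.324% of all tested genes. The median log2 fold change over the 81 genes was 0.12.

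The called genes fell in 2 of the lists. Among 6 tested receptors that also signal through the common gamma chain, Clec4d and Clec4e were called up. Clec4d, a C-type lectin for mycobacterial glycolipid, rose from 8.20 ± 1.53 to 24.4 ± 4.59 CPM (SD, n = 4, log2 fold change 1.58, SE 0.16, edgeR, adjusted p = 7.68e-04). Clec4e, the lectin Mincle, rose from 3.59 ± 1.04 to 8.58 ± 1.33 CPM (log2 fold change 1.28, SE 0.21, edgeR, adjusted p = 0.00207). Gp6, the collagen receptor of platelets, had a log2 fold change of 0.79 (SE 0.16, edgeR, adjusted p = 0.00589), and Ncr1, a receptor of NK cells, had -0.58 (SE 0.23, edgeR, adjusted p = 0.113). The median of these 6 was 0.92, and Gp6 is also one of the platelet markers and Ncr1 one of the NK cell markers.

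Among 13 regulators of Fc receptor transcription, Cebpa and C5ar1 were called up. Cebpa, a transcription factor of granulocytes and monocytes, rose from 3.76 ± 1.12 to 8.99 ± 2.68 CPM (SD, n = 4, log2 fold change 1.25, SE 0.25, edgeR, adjusted p = 0.00725). C5ar1, the receptor for the complement fragment C5a, which shifts the balance of Fc gamma receptors on macrophages, rose from 8.13 ± 2.61 to 18.4 ± 2.62 CPM (log2 fold change 1.19, SE 0.22, edgeR, adjusted p = 0.00454). Spi1, which encodes the myeloid factor PU.1, passed the adjusted p below the fold threshold, with 25.6 ± 2.07 and 44.0 ± 8.04 CPM (log2 fold change 0.78, SE 0.13, edgeR, adjusted p = 0.00249). The genes with the smallest p in the other direction were Irf8 (-0.31), Nr3c1 (-0.23) and Il10ra (-0.17), none of which passed. The median of the list was 0.17. The call of Cebpa was lost without control 1, 2 or 3 and without stress 1 or 3, and that of C5ar1 without control 2 or 3 and without stress 2, 3 or 4, so each was lost in 5 of 8 fits that left out a sample, against 0 of 8 for Clec4d and Clec4e.

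The signalling genes below the receptors were called in no list by edgeR. Among 17 kinases and adaptors of activating Fc signalling, 6 were higher at an unadjusted p below 0.05, and Card9 (log2 fold change 0.87) and Bcl10 (0.44), which join Syk to NF-kappaB, passed the adjusted p alone, at 0.00625 and 0.00884. Syk itself had a log2 fold change of 0.02 (SE 0.13, edgeR, adjusted p = 0.923). Of 7 other ITAM adaptors 1 was higher at an unadjusted p below 0.05, which was Tyrobp (DAP12), a separate ITAM adaptor of myeloid and NK cells with receptors of its own. It stood at 20.5 ± 4.53 and 38.9 ± 4.22 CPM (log2 fold change 0.93, SE 0.15, edgeR, adjusted p = 0.00199). The T and B cell adaptors of that list lay between -0.22 for Cd79a and 0.15 for Cd3d and did not pass.

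On the inhibitory side and in the actin machinery, no gene reached the fold threshold with its adjusted p. Of 11 inhibitory phosphatases and adaptors, 2 were higher at an unadjusted p below 0.05 and 1 was lower, and Ptpn11, the phosphatase SHP-2, passed the adjusted p alone (log2 fold change 0.64, SE 0.14, edgeR, adjusted p = 0.00843). Inpp5d, the phosphatase that Fcgr2b recruits, had a log2 fold change of 0.13 (SE 0.10, edgeR, adjusted p = 0.424). Of 17 genes of the actin machinery of the phagocytic cup, 14 were higher and 3 lower, 10 and 1 of them at an unadjusted p below 0.05. Gsn, Rac1 and Arpc3 passed the adjusted p alone, with log2 fold changes of 0.87, 0.86 and 0.53 (edgeR, adjusted p = 0.00256, 0.00322 and 0.00872). The medians were -0.04 for the inhibitory and 0.34 for the actin genes, against -0.02 for all tested genes.

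The other Fc receptors, most of them genes of B cells, lay mainly below the control level. Of 9 tested genes 2 were higher and 7 lower, 5 of the latter at an unadjusted p below 0.05, and the median was -0.42. Fcer2a, the low-affinity IgE receptor of B cells, passed the adjusted p alone, with 107 ± 16.8 and 65.3 ± 7.59 CPM (SD, n = 4, log2 fold change -0.72, SE 0.14, edgeR, adjusted p = 0.00445). Fcamr stood at 5.92 ± 0.291 and 2.20 ± 1.33 CPM (log2 fold change -1.35, SE 0.30, edgeR, adjusted p = 0.0110). Fcrl1 (-0.42) and Fcrl5 (0.81) did not pass, and the B cell markers were lower in the same libraries, as given above.

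**Figure D5:**
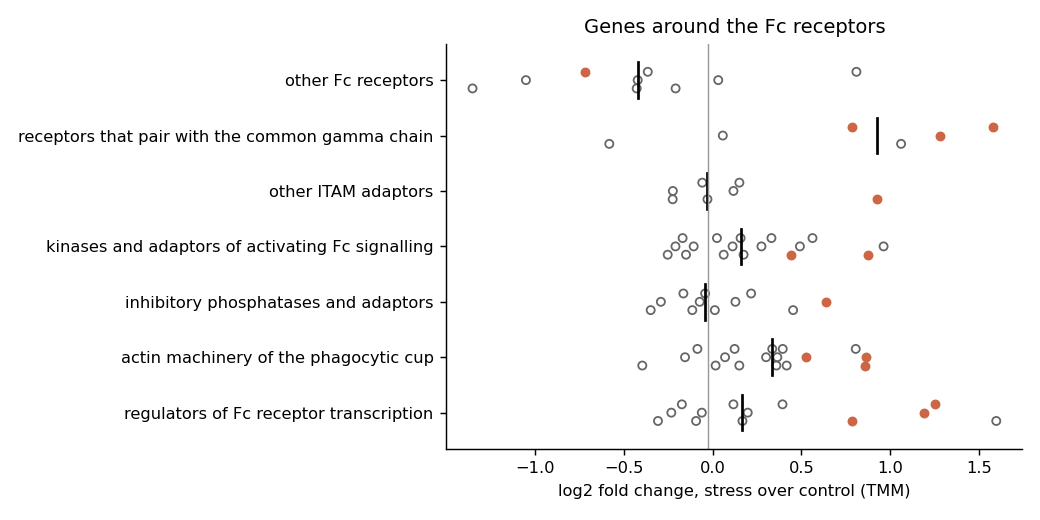
Log2 fold change (stress over control, TMM) of each tested gene in the lists of related genes, with filled points for an adjusted p below 0.01 and open points for all others, black bars for the median of a list and a grey line for that of all tested genes. Clec4d (1.58), Clec4e (1.28), Cebpa (1.25) and C5ar1 (1.19) are the filled points above 1, and Fcer2a (-0.72) is the filled point below 0.

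The bases before the start of 4 of the genes are shown because the activating receptors share a motif there. The core letters GAGGAA, which PU.1 binds, were searched on both strands in the 250 bases before each RefSeq start (GRCm38.p6), and 23.1% of 27025 promoters hold them. Fcgr1, Fcgr3 and Fcgr4 hold them within the last 60 bases, as TTCCTC on the gene's own strand, and Fcgr2b, Fcer1g and Fcgrt do not hold them in the 250 bases. Capitals mark the match, and the positions are chr3:96293970-96294029 (minus strand) for Fcgr1, chr1:171059395-171059454 (minus strand) for Fcgr3, chr1:171018866-171018925 (plus strand) for Fcgr4 and chr1:170976072-170976131 (minus strand) for Fcgr2b.
Fcgr1: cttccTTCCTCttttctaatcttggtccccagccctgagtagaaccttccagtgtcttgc
Fcgr3: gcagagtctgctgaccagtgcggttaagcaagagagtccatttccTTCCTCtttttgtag
Fcgr4: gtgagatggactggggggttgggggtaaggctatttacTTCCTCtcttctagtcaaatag
Fcgr2b: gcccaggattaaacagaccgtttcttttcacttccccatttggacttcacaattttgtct
The interferon-gamma motif GAS (TTCNNNGAA), held by 7.18% of the promoters, was found in Fcgr1 and in no other of the 6. The PU.1 letters are thus held by Fcgr3, which was called, and by Fcgr1 and Fcgr4, which did not pass. A match describes letters in a window and not a bound site.

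The profile over the 8 libraries was compared with that of every other tested gene, as the root mean square difference of centred log2 CPM, in which a small value means a like profile. The nearest genes to Fcgr3 were P2ry1 (0.0848), an ADP receptor of platelets, Mxd1 (0.103), a transcription factor of the MYC network, and Itgb3 (0.106), the beta-3 integrin of platelets. The nearest to Fcer1g were Fam104a (0.0750), Smdt1 (0.0861) and Glul (0.0894). Among the other 5 receptor genes the nearest to Fcgr3 was Fcer1g, at 0.315 and rank 415. Fcgr2b was nearest to Ncf1 (0.0541), a subunit of the phagocyte oxidase, Napsa (0.0752) and Rhbdf2 (0.0762), and Fcgrt to Apba3 (0.0679), Papd4 (0.0848) and Sars2 (0.0953). Fcgr1 and Fcgr4, the genes with the widest spread, had less close neighbours, Mrc1 (0.428), the mannose receptor, I830127L07Rik (0.459) and Ppfia4 (0.504) for Fcgr1, and Tmem51 (0.167), Rasal2 (0.238) and Ugt1a7c (0.244) for Fcgr4.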

How the data were processed

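Whole blood was frozen, and libraries were made from 1 ug of total RNA with an Illumina TruSeq kit. The authors deposited raw whole-number counts per gene symbol, with no normalization. The submitters' processing notes name HISAT2, featureCounts and mm10, and versions, annotation and strand setting are not given in the sources used here. All 8 columns were assigned to samples by their labels.

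Testing was limited to genes reaching 10 counts in 4 or more libraries and used edgeR 4.0.16 (R 4.3.3, TMM, robust quasi-likelihood), with the thresholds of the study for calls. Ratios of counts were compared by two-sided exact permutation over all 70 assignments (scipy 1.17.1). The fit was tested on simulated counts. The 6 genes and the lists of related genes and markers were chosen with earlier results of these data known. All 6 were named, with called genes, up to 3 of the smallest p in each direction of a list and the 3 nearest profiles, and Syk and Inpp5d were added after values were seen. Alternatives were DESeq2 1.42.0, limma-voom (limma 3.58.1), other scalings and filters, other thresholds, a replicate block, removal of haemoglobin genes and leaving out each sample. Coordinates, exons and shared windows came from GENCODE M21 (GRCm38), and all 6 promoters matched RefSeq. Protein sequences were not used here.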

Additional observations from a re-analysis of the deposited data

Results flagged for a closer look

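In 2 of 46 groups of 4 values examined, a sample stood far from the other 3, and chance alone flags about 1 group in 20. The summed neutrophil markers reached 862 CPM in stress 4, against 622 CPM in the next stress sample, a gap of 0.880 of the range of the group (above Dixon's 95% critical value). The summed NK cell markers reached 134 CPM in stress 3, against 68.2 CPM in the next, a gap of 0.883 of the range. Fcgr3, which neutrophils and NK cells carry, stood at 26.3 CPM in stress 4 and at 19.2 CPM in stress 3, the second highest and the lowest of the stress group. The part of these cells in the levels of Fcgr3 was not tested.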

How the results depend on the processing

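The number of the 6 genes called was 1 under all alternatives except scaling by total counts (0) and the adjusted p with no fold threshold (2, where Fcer1g passed at 0.83), and it was 1 to 1 when each sample was left out. Fcgr3 was 0.48 by total counts and 1.05 to 1.34 with a sample left out (edgeR, adjusted p 0.00104 to 0.00726). Fcer1g was 0.75 to 0.99 (edgeR, adjusted p 0.00208 to 0.0167). Fcgr2b, near 0, was 0.0019 with DESeq2's size factors and -0.0842 to 0.111 with a sample left out. Fcgr4 was 0.45 to 0.93, lowest without stress 1, and Fcgrt was -0.257 to -0.00504. Fcgr1 had no value with 10 counts required in every sample. With a sample left out, the log2 difference was 1.10 to 1.34 for Fcgr3 to Fcgr2b, 0.75 to 1.00 for Fcer1g to Fcgr2b, 0.91 to 2.03 for Fcgr1 to Fcgr2b, 0.45 to 0.85 for Fcgr4 to Fcgr2b, -0.71 to -0.28 for Fcgr4 to Fcgr3, -0.53 to -0.22 for Fcer1g to Fcgr3 and -0.91 to -0.63 for Fcgrt to B2m, where 4 against 3 samples allow no p below 0.0571. Genes called in the lists of related genes numbered 9 by total counts (0 up and 9 down, against 4 up and 0 down), and 2 to 6 with a sample left out, with 2 without control 2 and 2 without control 3. Over all genes, 198 were called up and 2 down, against 14 and 729 by total counts, 307 and 12 with DESeq2, 76 and 1 without control 2, 96 and 1 without control 3, and 338 and 5 without control 4. The count called down was also 8 without stress 4, 4 without stress 1, 4 with no count filter, 4 with upper-quartile scaling and 1 without control 1.

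Samples with the same number did not vary together (correlations 0.0621, 4.41e-04, -0.0445 and -0.160), so the numbers were not taken as pairs. With the replicate block, Fcgr3 was 1.18 (edgeR, adjusted p = 6.27e-04), Fcer1g 0.84, Fcgr1 1.51, Fcgr4 0.64, Fcgr2b -0.02 and Fcgrt -0.16, the count of called genes among the 6 was 1, and 189 genes were called up and 1 down in all. The low counts of Fcgr1, 9 reads in stress 2, limit what its values can show. Depth differed between the groups, and on the scale of total counts the log2 fold changes of all 6 genes were lower than with TMM.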
